A study of Homo sapiens with 18 samples.

Results

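The 37 genes described here are interferon-stimulated genes, taken by their symbols from a table of 20145 genes. Their messenger RNA was measured in LNCaP cells, an established line of human prostate adenocarcinoma. The series concerns inhibitors of the bromodomain of BRD7, a chromatin protein, and their activity in prostate cancer. Cells were exposed for 72 h to 0.2 µM ACBI, to 1 µM of the compound 2-77, to 2 µM BD98, to P-16 or ENZA (both 10 µM), or to the vehicle DMSO. Each condition had 3 libraries, 18 in all, and all cells were of the same line in medium with serum and antibiotics. The labels give the compounds by these short names, and the protocol writes PB16 for P-16. The doses of the 5 compounds differ apart from P-16 and ENZA, so a difference between compounds is also one between doses. Whether libraries of one group stem from separate cultures is not stated, and the p-values measure only the spread between these libraries, which may be technical.

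Interferons are secreted proteins that cells release on sensing viral nucleic acid. Type I interferons bind the receptor IFNAR1 and IFNAR2, the kinases JAK1 and TYK2 then phosphorylate STAT proteins, and STAT2 joins IRF9 in a complex that binds the interferon-stimulated response element (ISRE) in the promoters of antiviral genes. Type II interferon works through IFNGR1, IFNGR2, JAK1 and JAK2, and its targets carry the gamma-activated site (GAS). Many of these genes keep a low level without added interferon. LNCaP cells are described in the literature as weak responders to interferon, with little JAK1.

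Total counts per library ran from 16835113 to 36975052, and 15422 genes passed the filter on low counts. Ribosomal RNA took 8.6% of the counts of ACBI replicate 3, against 0.639 to 2.09% in the other 17 libraries. Values below are CPM, a gene's counts scaled to a common library size with TMM factors. A fold change is on the log2 scale, compound over DMSO, with its standard error, and a gene is called at an adjusted p under 0.05 in edgeR's quasi-likelihood test over all 15422 genes. Of the 37 members 34 were tested. OAS2, MX2 and XAF1 did not pass the filter. Of those tested, 25 were at or over 0.439 CPM, the filter's limit, in all 18 libraries and 9 were under it in some. IFI44L passed only through the ACBI and BD98 groups, where it was high. The summed counts of the 37 genes were 0.0488 to 0.0540% of each ACBI library, 0.0718 to 0.0726% of each BD98 library and 0.0492 to 0.0556% of each library of the other 4 groups, DMSO among them.

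Luminal prostate markers (9 of 9 in the table, among them KLK3, TMPRSS2 and FOLH1) summed to 5015 to 5160 CPM in ACBI libraries, 7322 to 7512 in BD98, 5755 to 7751 in the other 3 compound groups and 10240 to 10270 in DMSO. KLK3 carried much of that sum, at 654 ± 24.0 CPM in ACBI libraries and 4277 ± 46.6 CPM in DMSO libraries (SD, n = 3 each), and the 9 markers did not move as one. Of them 1 rose and 6 fell with ACBI, 2 and 4 with 2-77 and 1 and 8 with BD98. With P-16 3 rose and 4 fell, and with ENZA 5 and 4. Over all genes 35.4% rose and 36.6% fell with ACBI, 20.5% and 20.2% with 2-77, and 24.5% and 24.5% with BD98. These shares were 12.4% and 11.6% with P-16 and 18.2% and 18.1% with ENZA. Of 12 immune cell markers 7 were in the table, and they summed to 4.32 to 7.40 CPM per library, nearly all of it CD68, with PTPRC at or near 0. Fibroblast and endothelial markers (5 of 7 in the table) summed to 12.35 to 14.35 CPM in ACBI libraries, 67.6 to 70.7 CPM in BD98 libraries and 34.1 to 36.3 CPM in DMSO libraries, nearly all VWF and COL1A1, with DCN, LUM and PECAM1 at or near 0. Of 4 basal markers 2 were in the table, at sums of 0 to 2.153 CPM. Whether these marker levels bear on the members' values was not tested. In bulk RNA, fewer cells with a transcript and less of it per cell cannot be told apart.

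The promoters of the members were read from RefSeq (GRCh38.p14) as the 250 bases before and 50 after each gene's start, and 30 of the 37 members had such a window. The ISRE-type motif searched was GAAANNGAAA on either strand, which reads TTTCNNTTTC on the opposite one. It occurred in 23 of these 30 genes (76.7%) and in 1195 of 27305 genes with a window in the RefSeq table (4.38%). The GAS-type motif, TTCNNNGAA, which is its own reverse complement, occurred in 10 of 30 members (33.3%) and in 9.38% of all genes. In the window with most ISRE-type matches of each gene, 3 of 10 GAS-type matches overlapped an ISRE-type one. The 6 windows below are shown because they belong to genes on which the values below turn, with ISRE-type matches in capitals, each 5′ to 3′ on the gene's strand. The windows of IFITM1, RSAD2 and OAS1 were also picked by motif and fold change and are not shown. IFITM1 (2 matches) fell with ACBI and was not called with BD98, and RSAD2 (1 match) fell with both. OAS1 (0 matches) fell with ACBI and rose with BD98. IFIT3 (chr10:89327747-89328046, plus strand), IFI44 (chr1:78649539-78649838, plus strand), IFITM3 (chr11:320811-321110, minus strand) and SAMD9 (chr7:93117930-93118229, minus strand) fell with ACBI and rose with BD98. IFIH1 (chr2:162318635-162318934, minus strand) rose with both, and was added after its values were seen. IRF9 (chr14:24161015-24161314, plus strand) also rose with both and has no match to the ISRE-type letters in this window.
IFIT3: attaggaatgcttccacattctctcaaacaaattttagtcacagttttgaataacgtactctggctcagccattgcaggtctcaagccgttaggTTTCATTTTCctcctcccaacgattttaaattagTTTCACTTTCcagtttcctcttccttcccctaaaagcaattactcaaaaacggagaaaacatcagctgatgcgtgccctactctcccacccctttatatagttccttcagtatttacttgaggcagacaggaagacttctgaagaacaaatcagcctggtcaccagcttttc
IFI44: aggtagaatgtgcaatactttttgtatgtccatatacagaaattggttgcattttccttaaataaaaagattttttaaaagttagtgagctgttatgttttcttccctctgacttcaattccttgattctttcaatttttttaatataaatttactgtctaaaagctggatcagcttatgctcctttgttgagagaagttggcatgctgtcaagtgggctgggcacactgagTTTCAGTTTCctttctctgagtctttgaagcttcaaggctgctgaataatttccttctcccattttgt
IFITM3: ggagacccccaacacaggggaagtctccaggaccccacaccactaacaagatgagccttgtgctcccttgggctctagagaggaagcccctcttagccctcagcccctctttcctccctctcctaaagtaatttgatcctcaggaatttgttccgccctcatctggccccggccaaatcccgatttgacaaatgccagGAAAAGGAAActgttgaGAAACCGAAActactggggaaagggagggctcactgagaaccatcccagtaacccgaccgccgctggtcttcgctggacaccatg
SAMD9: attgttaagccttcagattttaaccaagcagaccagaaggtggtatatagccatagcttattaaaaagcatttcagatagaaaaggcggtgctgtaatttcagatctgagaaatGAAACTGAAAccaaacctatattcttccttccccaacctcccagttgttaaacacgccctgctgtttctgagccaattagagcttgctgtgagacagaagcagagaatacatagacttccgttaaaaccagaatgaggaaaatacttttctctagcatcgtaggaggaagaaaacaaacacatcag
IFIH1: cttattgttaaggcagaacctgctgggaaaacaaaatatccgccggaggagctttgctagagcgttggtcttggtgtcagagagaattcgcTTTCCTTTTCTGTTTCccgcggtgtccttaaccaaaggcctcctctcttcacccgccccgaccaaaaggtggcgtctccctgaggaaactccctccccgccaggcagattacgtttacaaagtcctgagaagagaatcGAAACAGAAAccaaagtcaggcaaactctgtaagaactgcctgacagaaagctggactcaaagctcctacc
IRF9: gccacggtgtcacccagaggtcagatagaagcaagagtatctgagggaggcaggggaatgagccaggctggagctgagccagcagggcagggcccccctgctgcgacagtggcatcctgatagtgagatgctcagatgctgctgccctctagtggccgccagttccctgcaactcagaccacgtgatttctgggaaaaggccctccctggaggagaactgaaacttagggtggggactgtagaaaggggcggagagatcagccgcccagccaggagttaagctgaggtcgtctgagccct
The same letters thus stood upstream of genes that fell with ACBI and of one that rose. Among members with a window, 9 of the 12 that rose with ACBI and 11 of the 14 that fell held an ISRE-type match. With BD98 these were 17 of 22 that rose and 2 of 3 that fell. A match describes the letters and not a bound site.

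**Figure D1:**
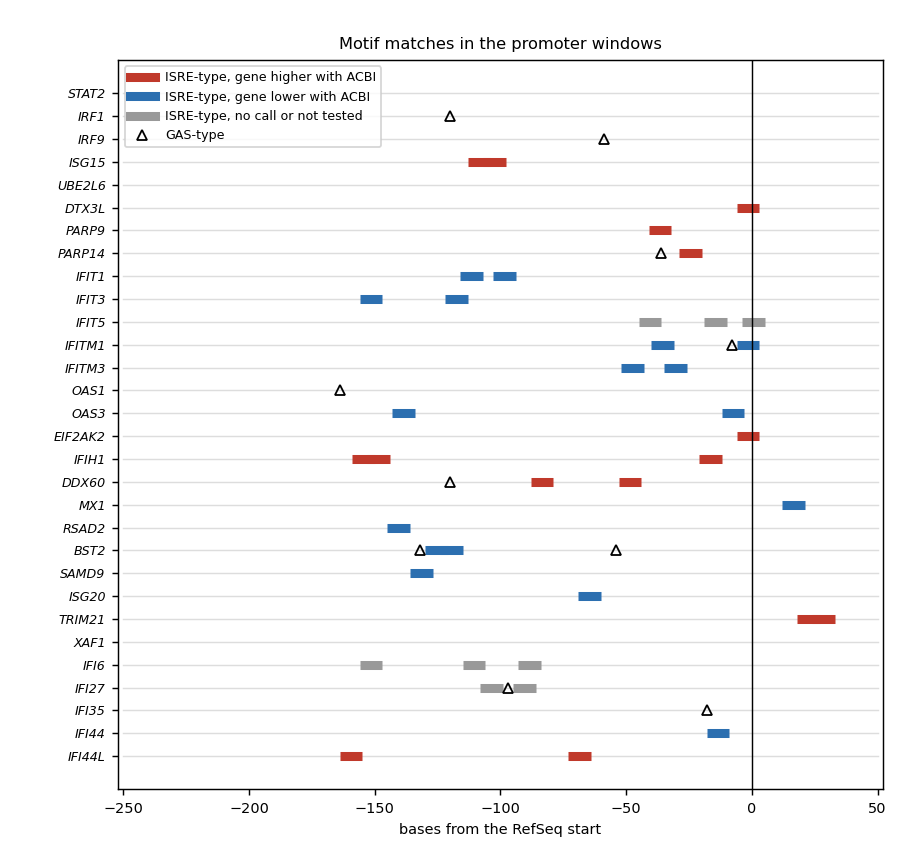
Positions of motif matches in the 30 promoter windows, in bases from the RefSeq start (line at 0), with thick bars for ISRE-type matches coloured by the gene's call in ACBI against DMSO and triangles for GAS-type matches. The first bases of the 40 ISRE-type matches lie between -164 and 24, and red and blue bars share that range.

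Across the 34 tested members, the 5 compounds differed in how many genes moved and in which direction. With BD98, 26 of 34 members rose and 4 fell, where 24.5% of all genes tested rose and 24.5% fell. With ACBI, 13 members rose (38.2%, all genes 35.4%) and 18 fell (52.9%, all genes 36.6%). The share that rose with ACBI was near that of all genes. The rises with BD98 and with ACBI include IFI44L, which was tested only because it was high in those groups, so it adds nothing to either count. The falls with ACBI include IFIT3, IFITM1, OASL, RSAD2 and BST2, with 0 ACBI libraries over the filter's limit, OAS1 with 1 and IFI44 with 2. They passed the filter through the other groups, where they were higher, so they add nothing to the count of falls. OASL and RSAD2, among the falls with BD98, had 2 and 1 BD98 libraries over the limit. With 2-77, 7 rose and 3 fell, where 20.5% and 20.2% of all genes did. With ENZA, 7 rose and 4 fell, beside 18.2% and 18.1% of all genes. With P-16, 1 rose and 1 fell, beside 12.4% and 11.6%. The median log2 fold change of the members was -0.64 with ACBI, 0.20 with 2-77, 0.47 with BD98, 0.05 with P-16 and 0.17 with ENZA, while that of all genes lay within 0.01 of 0 in each. These 5 comparisons share the DMSO libraries.

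**Figure D2:**
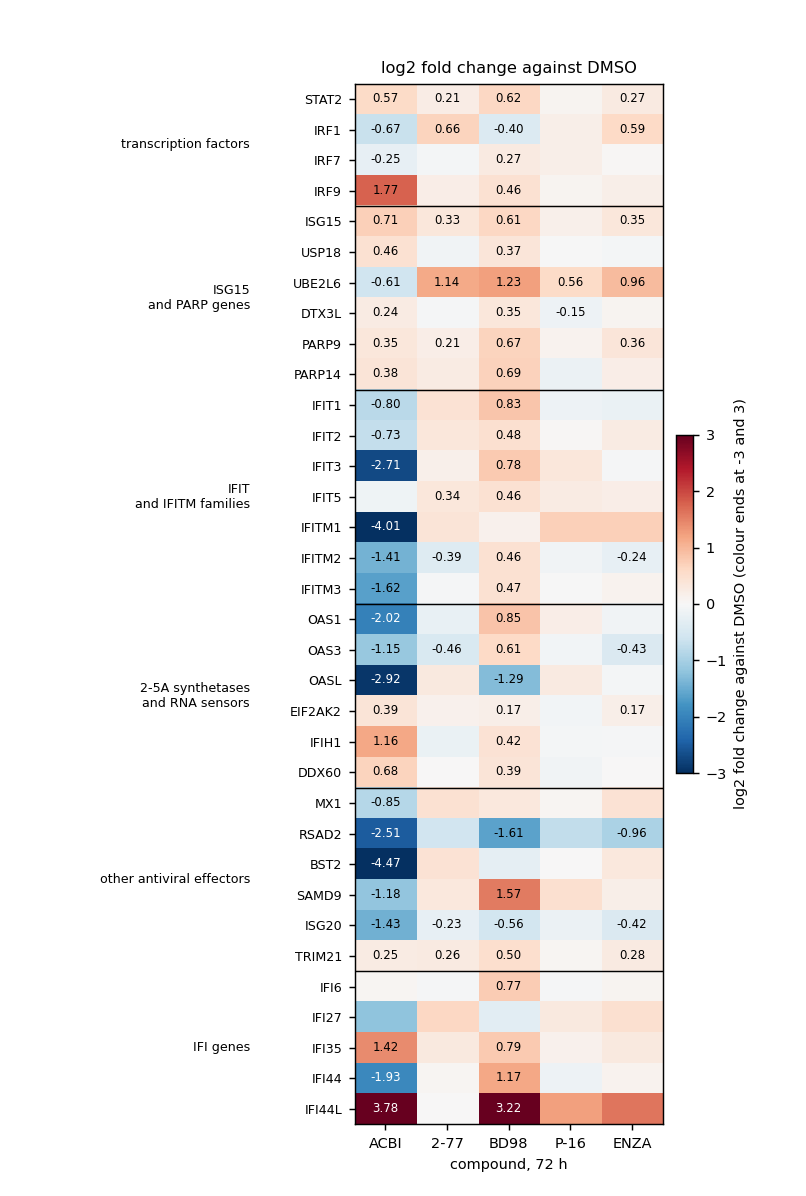
Log2 fold change against DMSO of the 34 tested members, grouped by role, for each compound at 72 h. A number is printed where the adjusted p was under 0.05. The BD98 column is mostly red (26 of 34 rose), while the ACBI column is split between 13 that rose and 18 that fell. The fitted values of IFITM1, BST2 and IFI44L rest on 3 or fewer counts in one group and depend on the prior count. IFI44L, counted among the rises, passed the filter only through its ACBI and BD98 libraries. IFIT3, IFITM1, OASL, RSAD2 and BST2, counted among the falls with ACBI, had 0 ACBI libraries over the filter's limit.

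By group means, BD98 was the highest of the 6 conditions for 18 of 34 members (18.8% of all genes) and the lowest for 0. ACBI was the lowest for 20 (37.6% of all genes) and the highest for 8 (35.2%). For 11 members all 3 BD98 libraries lay above all 15 libraries of the other groups, which held for 6.75% of all genes. For 14 members all 3 ACBI libraries lay below the other 15, as for 24.7% of all genes, and for 4 they lay above, as for 22.5%. These 14 include IFIT3, IFITM1, OAS1, OASL, BST2 and IFI44, and the 20 lowest include these, RSAD2 and IFI27. Not all ACBI libraries of these genes were over the filter's limit, so they were tested through the other groups, where they were higher. The 4 members highest in ACBI in this sense were IRF9, IFI35, IFIH1 and EIF2AK2.

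Of the 4 transcription factors among the members, IRF9 and STAT2 rose and IRF1 and IRF7 fell with ACBI. For 4 genes this division is not far from the shares of all genes given below. With BD98, 3 rose and IRF1 fell. Over all genes 35.4% rose and 36.6% fell with ACBI, and 24.5% and 24.5% with BD98. IRF9 (chr14:24161265-24166565, plus strand, hg38), the DNA-binding partner of STAT2, had 24.7, 23.4 and 22.5 CPM in ACBI libraries and 9.70, 9.29 and 9.51 CPM in BD98 libraries. It had 9.43, 7.90 and 6.22 CPM with 2-77, 7.41, 7.203 and 7.26 with P-16, 7.89, 7.76 and 7.69 with ENZA and 8.15, 6.17 and 6.597 in DMSO libraries. The ACBI libraries stood far above every other library, and the BD98 libraries were above DMSO without overlap. The log2 fold change of IRF9 was 1.77 ± 0.11 with ACBI (edgeR adjusted p = 7.95e-15) and 0.46 ± 0.12 with BD98 (edgeR adjusted p = 0.00209). IRF9 was not called with the other 3 compounds.

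STAT2 (chr12:56341598-56360107, minus strand), its partner in that complex, had 79.0, 82.1 and 68.3 CPM in ACBI libraries and 81.0, 76.5 and 80.0 CPM in BD98 libraries. It had 60.7, 60.3 and 58.2 CPM with 2-77, 54.4, 58.1 and 51.8 with P-16, 61.2, 61.8 and 63.4 with ENZA and 54.4, 50.1 and 50.5 in DMSO libraries. It rose with ACBI (0.57 ± 0.057), BD98 (0.62 ± 0.057), ENZA (0.27 ± 0.058) and 2-77 (0.21 ± 0.058), with a highest edgeR adjusted p of 0.00398. ACBI and BD98 libraries overlapped. IRF1, an activator that is itself induced by interferon gamma, went in both directions and averaged 2.50 ± 0.0851 CPM in ACBI libraries, 6.30 ± 0.586 in 2-77, 2.98 ± 0.456 in BD98, 5.94 ± 0.657 in ENZA and 3.96 ± 0.406 in DMSO (SD, n = 3 each). It fell with ACBI (-0.67 ± 0.16) and BD98 (-0.40 ± 0.16) and rose with 2-77 (0.66 ± 0.15) and ENZA (0.59 ± 0.15). The BD98 call (edgeR adjusted p = 0.0382) was lost with DESeq2 and with 6 other settings. IRF7, which drives interferon genes themselves, moved little, at -0.25 ± 0.092 with ACBI and 0.27 ± 0.089 with BD98. Both calls of IRF7 were lost when single libraries were left out.

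In the group of ISG15 and PARP genes all 6 members rose with BD98, where 24.5% of all genes did. With ACBI 5 of 6 rose, all but UBE2L6, where 35.4% of all genes did. HERC5, from the further list of interferon-stimulated genes given last, fell with BD98 (-0.60 ± 0.14) and rose with ACBI (3.07 ± 0.10). ISG15 (chr1:1013497-1014539, plus strand), a ubiquitin-like protein that is attached to other proteins, had 45.7, 43.8 and 39.1 CPM in ACBI libraries and 41.2, 37.5 and 41.2 CPM in BD98 libraries. It had 32.7, 34.7 and 31.3 CPM with 2-77, 29.1, 31.0 and 27.6 with P-16, 33.5, 34.5 and 32.0 with ENZA and 28.2, 24.6 and 25.9 in DMSO libraries. DMSO was the lowest group, and its libraries overlapped only those of P-16. ISG15 rose with ACBI (0.71 ± 0.068), BD98 (0.61 ± 0.069), ENZA (0.35 ± 0.069) and 2-77 (0.33 ± 0.069), with a highest edgeR adjusted p of 0.000306.

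UBE2L6 (chr11:57551655-57568330, minus strand), the conjugating enzyme that carries ISG15, had 2.18, 1.57 and 1.45 CPM in ACBI libraries and 5.71, 6.495 and 6.46 CPM in BD98 libraries. It had 5.54, 6.61 and 5.49 CPM with 2-77, 4.03, 4.23 and 3.46 with P-16, 5.54, 5.05 and 4.91 with ENZA and 3.67, 2.17 and 2.23 in DMSO libraries. Each of 2-77, BD98 and ENZA lay above DMSO without overlap, while ACBI overlapped DMSO at 2.18 and 2.17 CPM and P-16 overlapped 1 high DMSO library at 3.67 CPM. UBE2L6 rose with BD98 (1.23 ± 0.17, edgeR adjusted p = 9.11e-07), 2-77 (1.14 ± 0.17), ENZA (0.96 ± 0.18) and P-16 (0.56 ± 0.18, edgeR adjusted p = 0.0241). It fell with ACBI (-0.61 ± 0.20, edgeR adjusted p = 0.00867), a call that was lost without ACBI replicate 3 or without DMSO replicate 1. The P-16 call was lost without P-16 replicate 1 or 2 or DMSO replicate 2 or 3. UBE2L6 was the only member called with all 5 compounds.

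USP18, the protease that removes ISG15 and also blocks the interferon receptor, averaged 20.5 ± 1.18 CPM in ACBI libraries, 19.4 ± 1.30 in BD98 and 14.9 ± 1.82 in DMSO (SD, n = 3 each). It rose with ACBI (0.46 ± 0.090) and BD98 (0.37 ± 0.091) and was not called with the other 3 compounds. PARP9 (chr3:122527924-122564784, minus strand) and DTX3L (chr3:122564338-122575202, plus strand) encode a ubiquitin ligase pair. Their genes overlap by 447 bases on opposite strands, and the counting is not stated to use strand, so reads there may not have been told apart. PARP9 had 53.1, 53.1 and 51.5 CPM in ACBI libraries, 46.6, 48.1 and 48.3 in 2-77, 66.2, 63.5 and 66.4 in BD98, 46.9, 42.3 and 43.0 in P-16, 50.7, 50.6 and 57.3 in ENZA and 43.1, 42.0 and 38.9 in DMSO libraries. DTX3L had 68.6, 64.5 and 70.8 CPM in ACBI libraries, 54.5, 56.3 and 57.1 in 2-77, 71.3, 75.0 and 72.9 in BD98, 53.5, 49.3 and 52.6 in P-16, 58.3, 63.0 and 61.2 in ENZA and 54.2, 61.8 and 56.2 in DMSO libraries. For both genes the BD98 libraries lay above all others. PARP9 rose with BD98 (0.67 ± 0.056), ENZA (0.36 ± 0.056), ACBI (0.35 ± 0.056) and 2-77 (0.21 ± 0.056). DTX3L rose with BD98 (0.35 ± 0.052) and ACBI (0.24 ± 0.052) and fell with P-16 (-0.15 ± 0.054, edgeR adjusted p = 0.0435), the last being lost under 7 settings. PARP14, which attaches single ADP-ribose units, rose with BD98 (0.69 ± 0.14) and ACBI (0.38 ± 0.14), the ACBI call being lost without DMSO replicate 2.

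**Figure D3:**
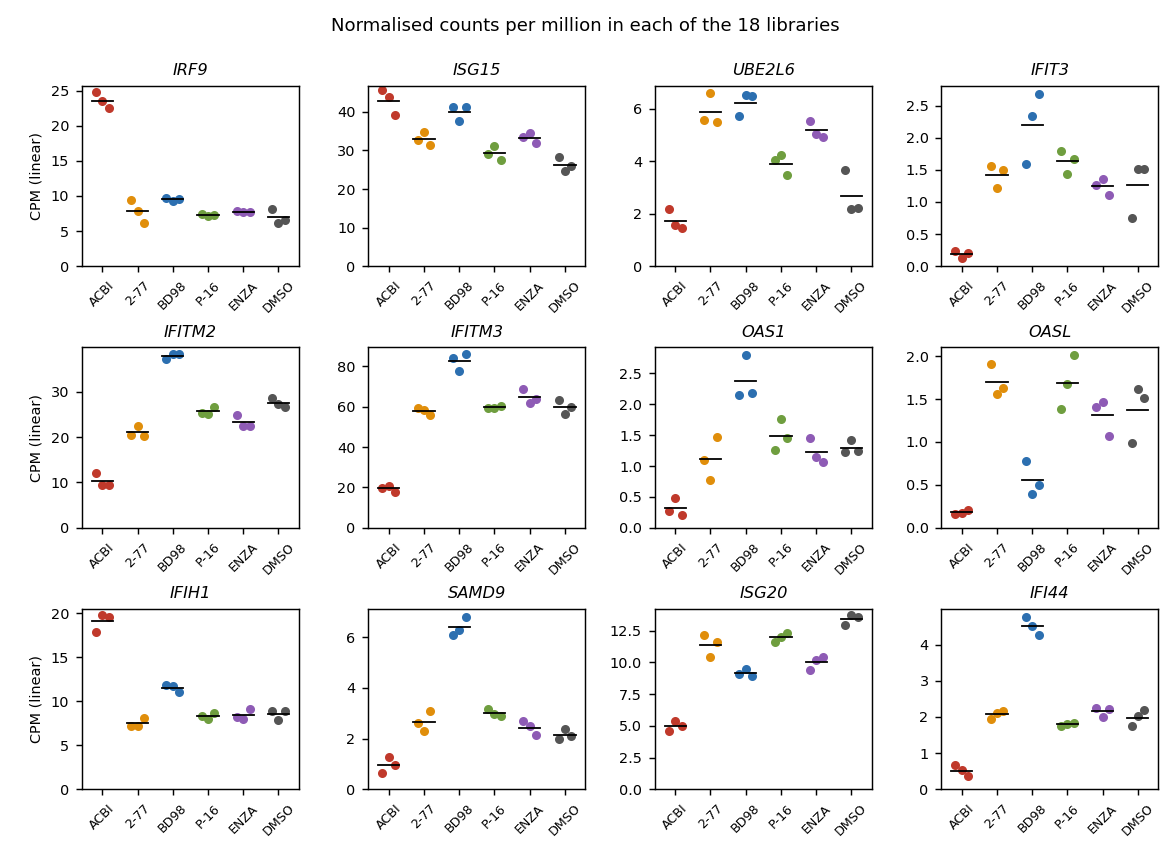
CPM of 12 members in each of the 18 libraries (points) with the mean of each group (line), on linear axes that start at 0. ACBI libraries are highest for IRF9 and IFIH1 and lowest for the IFIT, IFITM and OAS genes, SAMD9, ISG20 and IFI44, while BD98 libraries are highest for IFITM2, IFITM3, OAS1, SAMD9 and IFI44.

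The IFIT and IFITM families went down with ACBI and up with BD98. With ACBI 6 of 7 fell and 0 rose, where 36.6% and 35.4% of all genes did. IFIT3 and IFITM1, counted among these falls, had 0 ACBI libraries over the filter's limit and passed it through the other groups, where they were higher. With BD98 6 of 7 rose and 0 fell, where 24.5% and 24.5% of all genes did. IFIT proteins bind viral RNA, and IFITM proteins hinder the fusion of viruses with cell membranes. IFITM3 (chr11:319676-320860, minus strand) had 19.9, 20.6 and 17.9 CPM in ACBI libraries and 84.0, 77.4 and 85.9 CPM in BD98 libraries. It had 59.3, 58.5 and 56.0 CPM with 2-77, 59.2, 59.5 and 60.3 with P-16, 68.6, 61.9 and 64.0 with ENZA and 63.3, 56.3 and 59.7 in DMSO libraries. Every ACBI library was below, and every BD98 library above, all libraries of the other groups. IFITM3 fell with ACBI (-1.62 ± 0.062, edgeR adjusted p = 5.56e-20) and rose with BD98 (0.47 ± 0.055, edgeR adjusted p = 3.38e-08). The other 3 compounds gave no call, with log2 fold changes of -0.04 ± 0.055 for 2-77 and 0.12 ± 0.055 for ENZA.

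IFITM2 (chr11:308107-309410, plus strand) had 12.1, 9.40 and 9.49 CPM in ACBI libraries and 37.2, 38.3 and 38.3 CPM in BD98 libraries. It had 20.5, 22.4 and 20.3 CPM with 2-77, 25.4, 25.2 and 26.6 with P-16, 24.9, 22.4 and 22.5 with ENZA and 28.6, 27.4 and 26.6 in DMSO libraries. ACBI and BD98 again held the 2 ends of the range. IFITM2 fell with ACBI (-1.41 ± 0.081), 2-77 (-0.39 ± 0.074) and ENZA (-0.24 ± 0.074) and rose with BD98 (0.46 ± 0.072), with a highest edgeR adjusted p of 0.00981. The ENZA call was lost without ENZA replicate 2. IFITM1 (chr11:314040-315272, plus strand) was near the floor in ACBI libraries, at 0.0388, 0 and 0.0829 CPM. It had 1.49, 0.777 and 0.569 CPM with 2-77, 0.644, 1.14 and 0.737 with BD98, 1.55, 1.16 and 0.893 with P-16, 1.22, 1.14 and 1.30 with ENZA and 0.640, 0.961 and 0.624 in DMSO libraries. The 3 ACBI libraries held 3 counts in all and the 3 DMSO libraries 44, which is 18-fold lower in ACBI once scaled (95% counting interval 5.77 to 90.6). IFITM1 was called lower with ACBI and not called with any other compound. The 3 IFITM genes are close copies of each other, and how reads shared between them were counted is not stated, so the split among them is uncertain.

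IFIT3 (chr10:89327997-89340968, plus strand) had 0.233, 0.1305 and 0.207 CPM in ACBI libraries and 1.59, 2.34 and 2.68 CPM in BD98 libraries. It had 1.56, 1.21 and 1.503 CPM with 2-77, 1.79, 1.44 and 1.67 with P-16, 1.27, 1.36 and 1.11 with ENZA and 0.757, 1.52 and 1.52 in DMSO libraries. The ACBI libraries were the lowest of all 18, with 14 counts in all. IFIT3 fell with ACBI (-2.71 ± 0.38, edgeR adjusted p = 2.51e-07) and rose with BD98 (0.78 ± 0.26, edgeR adjusted p = 0.0131), the second call being lost without BD98 replicate 3 or DMSO replicate 1. IFIT1 and IFIT2 followed the same directions, at -0.80 ± 0.27 and -0.73 ± 0.17 with ACBI and at 0.83 ± 0.23 and 0.48 ± 0.16 with BD98. The fall of IFIT1 was not called without ACBI replicate 3, nor the rise of IFIT2 without BD98 replicate 2. IFIT5, at 5.71 ± 0.773 CPM in ACBI libraries and 6.29 ± 1.01 CPM in DMSO libraries (SD, n = 3 each), was the family member not called with ACBI, and it rose with BD98 (0.46 ± 0.13) and 2-77 (0.34 ± 0.13). Both rises of IFIT5 were lost without DMSO replicate 3, and that with 2-77 also without 2-77 replicate 3, with DESeq2 and with only the 2 groups in the fit.

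Of the 6 tested members among the 2-5A synthetases and RNA sensors, 3 rose and 3 fell with ACBI. OAS1 and OAS3, which make the 2-5A messenger, and OASL, their relative without that activity, fell. OASL had 0 ACBI libraries over the filter's limit and OAS1 had 1, so both were tested through the other groups, where they were higher. EIF2AK2 (the kinase PKR), IFIH1 (the sensor MDA5) and the helicase DDX60 rose. RNA sensors outside the 37 went both ways with ACBI. DDX58 rose (0.40 ± 0.11), and DHX58 (-2.00 ± 0.31) and TLR3 (-2.03 ± 0.26) fell. With BD98 5 of the 6 rose and OASL fell. Over all genes 35.4% rose and 36.6% fell with ACBI, and 24.5% and 24.5% with BD98. OAS3 (chr12:112938474-112973251, plus strand) had 16.2, 17.1 and 15.04 CPM in ACBI libraries and 53.0, 55.0 and 55.2 CPM in BD98 libraries. It had 26.2, 26.3 and 25.2 CPM with 2-77, 35.2, 32.6 and 32.4 with P-16, 26.3, 25.3 and 27.8 with ENZA and 35.6, 36.2 and 35.3 in DMSO libraries. BD98 libraries lay above all others and ACBI libraries below all others. Between them DMSO and P-16 stood above ENZA and 2-77, whose libraries overlapped each other. OAS3 fell with ACBI (-1.15 ± 0.063), 2-77 (-0.46 ± 0.059) and ENZA (-0.43 ± 0.059) and rose with BD98 (0.61 ± 0.056), with a highest edgeR adjusted p of 7.09e-07.

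OAS1 (chr12:112906777-112933219, plus strand) had 0.272, 0.478 and 0.207 CPM in ACBI libraries and 2.15, 2.79 and 2.18 CPM in BD98 libraries. It had 1.10, 0.777 and 1.46 CPM with 2-77, 1.26, 1.77 and 1.45 with P-16, 1.46, 1.14 and 1.07 with ENZA and 1.22, 1.42 and 1.25 in DMSO libraries. It fell with ACBI (-2.02 ± 0.34) and rose with BD98 (0.85 ± 0.26), and no library of either group overlapped another group. OASL (chr12:121020292-121039242, minus strand) had 0.155, 0.174 and 0.207 CPM in ACBI libraries and 0.773, 0.399 and 0.502 CPM in BD98 libraries. It had 1.91, 1.55 and 1.63 CPM with 2-77, 1.38, 1.67 and 2.01 with P-16, 1.41, 1.46 and 1.07 with ENZA and 0.989, 1.62 and 1.52 in DMSO libraries. ACBI libraries were the lowest and BD98 libraries next, without overlap. OASL fell with ACBI (-2.92 ± 0.37, edgeR adjusted p = 3.91e-08) and with BD98 (-1.29 ± 0.30, edgeR adjusted p = 0.000731). OAS2 had 2 to 12 counts per group and was not tested.

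IFIH1 (chr2:162267074-162318684, minus strand) had 17.9, 19.9 and 19.6 CPM in ACBI libraries and 11.9, 11.7 and 11.02 CPM in BD98 libraries. It had 7.23, 7.21 and 8.13 CPM with 2-77, 8.34, 7.95 and 8.65 with P-16, 8.22, 8.03 and 9.13 with ENZA and 8.90, 7.89 and 8.96 in DMSO libraries. ACBI libraries were above all others and BD98 libraries next. IFIH1 rose with ACBI (1.16 ± 0.088, edgeR adjusted p = 1.10e-12) and BD98 (0.42 ± 0.093, edgeR adjusted p = 0.000361). DDX60 rose with ACBI (0.68 ± 0.12) and BD98 (0.39 ± 0.13). EIF2AK2 averaged 95.4 ± 7.68 CPM in ACBI libraries and 72.8 ± 4.41 CPM in DMSO libraries (SD, n = 3 each) and rose with ACBI (0.39 ± 0.064), BD98 (0.17 ± 0.065) and ENZA (0.17 ± 0.064). The EIF2AK2 gene overlaps GPATCH11 on the opposite strand by 35 bases. Whether the counting told reads there apart by strand is not stated. The calls of EIF2AK2 and DDX60 with BD98 were lost when single libraries were left out. The ENZA call of EIF2AK2 was lost under 8 of 14 settings, DESeq2, RLE factors and the replicate block among them.

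Among the other antiviral effectors, 5 of the 6 tested fell with ACBI and TRIM21 rose. RSAD2 and BST2, counted among these falls, had 0 ACBI libraries over the filter's limit and passed it through the other groups, where they were higher. With BD98 SAMD9 and TRIM21 rose and RSAD2 and ISG20 fell. Over all genes 35.4% rose and 36.6% fell with ACBI, and 24.5% and 24.5% with BD98. SAMD9 (chr7:93099513-93118023, minus strand), a restriction factor of poxviruses, had 0.660, 1.26 and 0.953 CPM in ACBI libraries and 6.09, 6.27 and 6.80 CPM in BD98 libraries. It had 2.63, 2.29 and 3.09 CPM with 2-77, 3.17, 2.97 and 2.90 with P-16, 2.68, 2.50 and 2.13 with ENZA and 1.98, 2.38 and 2.09 in DMSO libraries. ACBI was below and BD98 above all other libraries. SAMD9 fell with ACBI (-1.18 ± 0.22, edgeR adjusted p = 2.36e-05) and rose with BD98 (1.57 ± 0.18, edgeR adjusted p = 1.57e-08).

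ISG20 (chr15:88635632-88656483, plus strand), an exonuclease that degrades viral RNA, had 4.58, 5.35 and 5.01 CPM in ACBI libraries and 9.10, 9.52 and 8.91 CPM in BD98 libraries. It had 12.2, 10.4 and 11.6 CPM with 2-77, 11.6, 12.0 and 12.3 with P-16, 9.39, 10.2 and 10.4 with ENZA and 13.0, 13.8 and 13.6 in DMSO libraries. The DMSO libraries were above all 15 others. ISG20 fell with ACBI (-1.43 ± 0.096), BD98 (-0.56 ± 0.089), ENZA (-0.42 ± 0.087) and 2-77 (-0.23 ± 0.086), the last with an edgeR adjusted p of 0.0296 that was lost under 5 settings. RSAD2 (chr2:6877777-6898239, plus strand), the radical enzyme viperin, had 0.194, 0.174 and 0.207 CPM in ACBI libraries and 0.3004, 0.684 and 0.201 CPM in BD98 libraries. It had 0.486, 0.907 and 0.894 CPM with 2-77, 0.773, 0.651 and 0.558 with P-16, 0.658, 0.461 and 0.649 with ENZA and 1.28, 1.11 and 0.981 in DMSO libraries. It too was highest in DMSO, without overlap. RSAD2 fell with ACBI (-2.51 ± 0.43), BD98 (-1.61 ± 0.39) and ENZA (-0.96 ± 0.35), on 14, 25 and 45 counts per group beside 66 in DMSO. The ENZA call of RSAD2 was lost under 5 settings.

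BST2, the tetherin that holds budding viruses at the membrane, had 0.0777, 0 and 0 CPM in ACBI libraries and 0.640, 0.455 and 1.025 CPM in DMSO libraries. The summed counts were 2 in ACBI, 43 to 77 in the other 4 compound groups and 43 in DMSO. Once scaled, BST2 was 26.4-fold lower in ACBI than in DMSO (95% counting interval 6.87 to 225). MX1, a GTPase that traps viral nucleocapsids, averaged 1.74 ± 0.165 CPM in ACBI libraries and 3.19 ± 1.22 CPM in DMSO libraries (SD, n = 3 each) and fell with ACBI (-0.85 ± 0.23, edgeR adjusted p = 0.00161). Its neighbour MX2 had 0 counts in the 3 ACBI libraries and 5 in the DMSO libraries, and was not tested. TRIM21, a receptor for antibodies inside the cell, rose with ACBI (0.25 ± 0.071), 2-77 (0.26 ± 0.070), BD98 (0.50 ± 0.070) and ENZA (0.28 ± 0.070). XAF1 had 0 to 3 counts per group.

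The IFI genes share a name for their induction and not a function. With BD98 4 of 5 rose, where 24.5% of all genes did. With ACBI IFI35 and IFI44L rose and IFI44 fell, where 35.4% of all genes rose and 36.6% fell. Both counts include IFI44L, which passed the filter only through the ACBI and BD98 groups. IFI35 (chr17:43006784-43014456, plus strand) had 14.7, 15.6 and 11.6 CPM in ACBI libraries and 8.84, 8.43 and 9.75 CPM in BD98 libraries. It had 5.998, 7.34 and 5.81 CPM with 2-77, 5.49, 5.44 and 6.31 with P-16, 5.73, 6.89 and 6.35 with ENZA and 5.12, 4.75 and 5.75 in DMSO libraries. ACBI libraries were above all others and BD98 libraries next. IFI35 rose with ACBI (1.42 ± 0.13, edgeR adjusted p = 2.67e-11) and BD98 (0.79 ± 0.13, edgeR adjusted p = 9.35e-06). IFI6, a mitochondrial and endoplasmic reticulum protein, averaged 11.6 ± 0.901 CPM in ACBI libraries, 18.96 ± 0.928 in BD98 and 11.2 ± 1.33 in DMSO (SD, n = 3 each) and rose with BD98 alone among the calls (0.77 ± 0.091). IFI27 had 10 to 39 counts per group and no call.

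IFI44 (chr1:78649789-78664078, plus strand) had 0.660, 0.522 and 0.373 CPM in ACBI libraries and 4.76, 4.50 and 4.25 CPM in BD98 libraries. It had 1.945, 2.12 and 2.15 CPM with 2-77, 1.75, 1.81 and 1.84 with P-16, 2.25, 2.01 and 2.22 with ENZA and 1.75, 2.02 and 2.18 in DMSO libraries. The ACBI libraries were below and the BD98 libraries above all others. IFI44 fell with ACBI (-1.93 ± 0.23, edgeR adjusted p = 1.98e-08) and rose with BD98 (1.17 ± 0.18, edgeR adjusted p = 2.53e-06). Its neighbour on the same strand, IFI44L (chr1:78620448-78646145, plus strand), ends 3643 bases before IFI44 begins. IFI44L had 0.622, 0.696 and 0.953 CPM in ACBI libraries, 0.472, 0.627 and 0.469 in BD98 libraries and 0, 0 and 0.134 in DMSO libraries. Summed counts were 55 in ACBI, 36 in BD98, 4 in 2-77, 8 in P-16, 13 in ENZA and 3 in DMSO. The scaled ratio over DMSO was 14.9 with ACBI (95% counting interval 4.85 to 74.7) and 10.1 with BD98 (3.18 to 51.2). IFI44L was over the filter's limit in no library of the other 4 groups, so its calls with ACBI and BD98 are a description only.

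**Figure D4:**
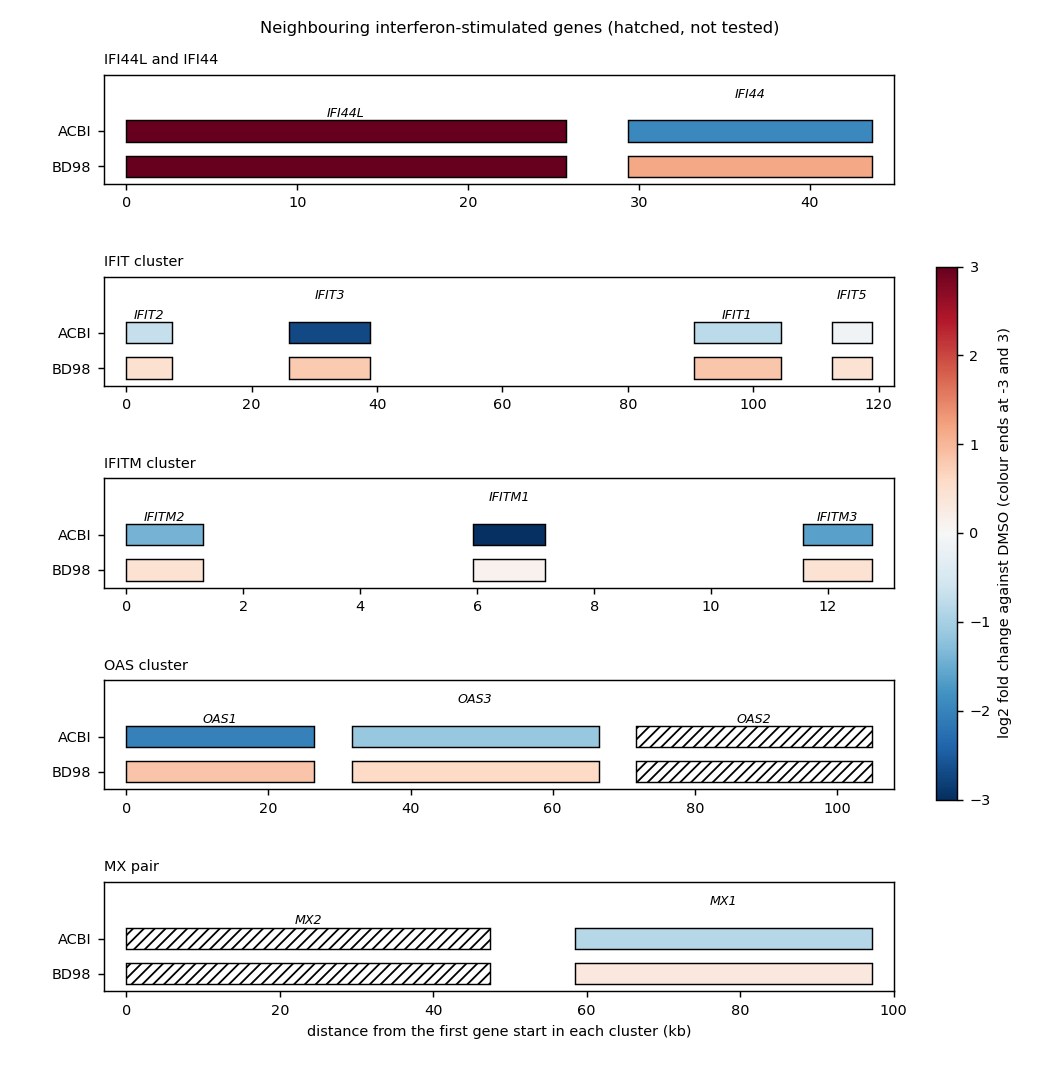
Members that neighbour each other, drawn to scale from the first gene's start in kb and coloured by log2 fold change against DMSO with ACBI (upper row) and BD98 (lower row), hatched where not tested. Within the IFIT, IFITM and OAS clusters the tested genes share a colour with ACBI apart from IFIT5, which was not called. IFI44L and IFI44 differ in colour with ACBI. The colours of IFI44L and IFITM1 rest on 3 or fewer counts in one group and depend on the prior count.

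In the IFIT, IFITM and OAS clusters the called neighbours moved alike. The 4 IFIT genes follow each other on chromosome 10 with gaps of 18.73, 51.58 and 8.08 kb. The 3 IFITM genes on chromosome 11 are 4.63 and 4.4 kb apart, and the 3 OAS genes on chromosome 12 are 5.25 and 5.27 kb apart. The called members of these clusters fell with ACBI and rose with BD98, with OAS2 not tested and IFITM1 not called with BD98. OASL lies elsewhere on chromosome 12 and fell with both. On chromosome 3, not drawn, PARP9 and DTX3L overlap and PARP14 lies 105.64 kb from DTX3L, and all of them rose with both. The neighbours IFI44L and IFI44 were called in opposite directions with ACBI (3.78 ± 0.65 and -1.93 ± 0.23), and both rose with BD98. IFI44L passed the filter only through the ACBI and BD98 groups. A like limit holds for the falls of IFIT3 and IFITM1, with 0 ACBI libraries over the filter's limit, and of OAS1, with 1.

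ACBI and BD98 were compared directly, at 0.2 µM and 2 µM. Of 34 members 21 were lower in ACBI than in BD98 and 5 were higher, where 36.2% and 33.4% of all genes were. Among the lower members were IFI44 (-3.10 ± 0.21), with 1 ACBI library under the filter's limit, SAMD9 (-2.74 ± 0.19) and IFITM3 (-2.09 ± 0.060). IRF9 (1.31 ± 0.10), IFIH1 (0.73 ± 0.084), IFI35 (0.63 ± 0.11), DDX60 (0.29 ± 0.12) and EIF2AK2 (0.21 ± 0.063) were higher in ACBI. STAT2 (-0.05 ± 0.055), ISG15 (0.10 ± 0.064) and USP18 (0.09 ± 0.087) were not called between them. All 7 IFIT and IFITM genes were lower in ACBI, IFIT5 included. IFIT3 and IFITM1, with 0 ACBI libraries over the filter's limit, were tested here only through the other groups.

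**Figure D5:**
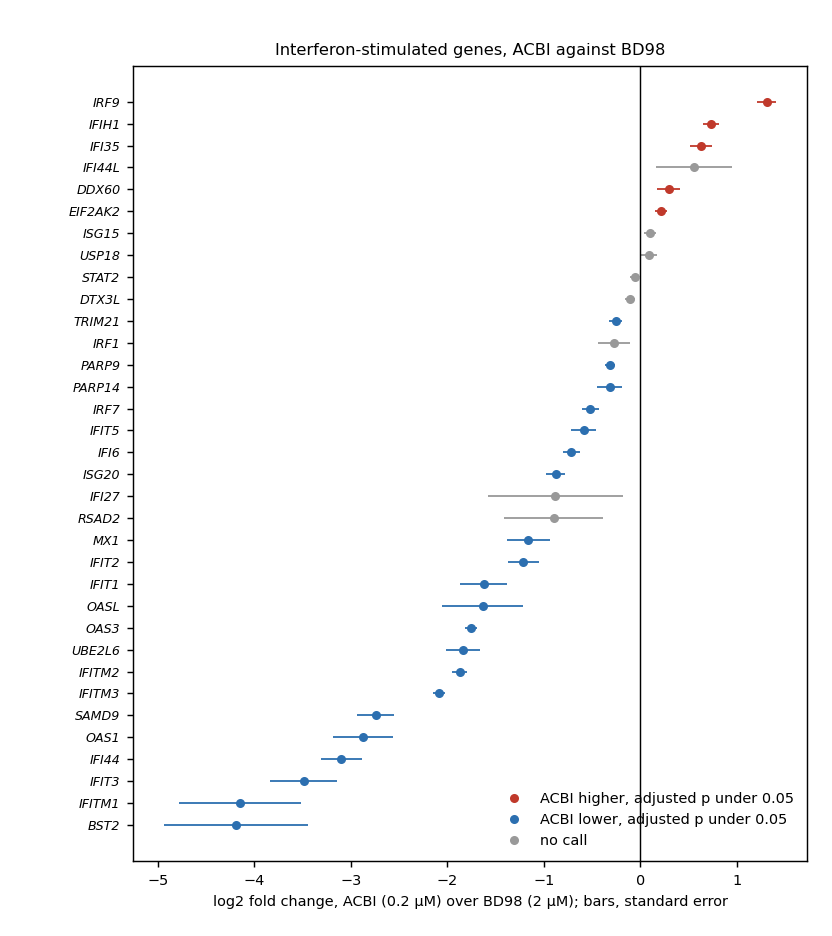
Log2 fold change of ACBI (0.2 µM) over BD98 (2 µM) for the 34 tested members, with standard errors as bars. The 5 members in red were higher and the 21 in blue lower in ACBI, from IRF9 at 1.31 down. The values of IFITM1 and BST2 rest on 3 and 2 counts in ACBI.

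Against the other 3 compounds ACBI gave a similar division. Compared with 2-77, 11 members were higher and 19 lower in ACBI (all genes 33.4% and 36.8%). Compared with P-16 these were 13 and 20 (35.0% and 36.5%), and compared with ENZA 10 and 20 (33.3% and 36.7%). Members under the filter's limit in ACBI libraries, such as IFIT3 and IFITM1 with 0 over it, were tested through the other groups. In each of these 3 comparisons all 7 IFIT and IFITM genes were lower in ACBI, and IRF9 was higher in ACBI by 1.57 ± 0.10 over 2-77, 1.69 ± 0.11 over P-16 and 1.60 ± 0.10 over ENZA on the log2 scale. IFI27, not called against DMSO, was lower in ACBI than in 2-77 (-1.83 ± 0.61). That value rests on 10 counts in ACBI and 39 in 2-77, with 0 ACBI libraries over the filter's limit. These contrasts share the ACBI libraries, and p-values were adjusted within each contrast and not over the 9 contrasts.

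The genes upstream of the members were measured as further lists. Of 21 interferon genes only IFNB1 is in the table, at 0 to 3 counts per group, and it was not tested. Of 8 tested receptor and kinase genes 6 rose with ACBI, 3 with 2-77, 4 with BD98, 2 with ENZA and 0 with P-16, and 0 fell with any compound. Of all genes 35.4% rose and 36.6% fell with ACBI, 20.5% and 20.2% with 2-77, 24.5% and 24.5% with BD98, 18.2% and 18.1% with ENZA, and 12.4% and 11.6% with P-16. Several counts of this and the next 3 lists lie near those shares. JAK2, the kinase of the interferon gamma receptor, averaged 40.4 ± 4.90 CPM in ACBI libraries and 20.8 ± 1.93 CPM in DMSO libraries (SD, n = 3 each) and rose by 0.96 ± 0.081. It also rose with 2-77 (0.30 ± 0.084) and ENZA (0.51 ± 0.083). IFNGR1, the chain that binds interferon gamma, averaged 44.1 ± 1.57 CPM in ACBI libraries and 27.6 ± 2.98 CPM in DMSO libraries and rose by 0.68 ± 0.070. TYK2, a kinase of the type I receptor, averaged 85.9 ± 1.75 CPM in BD98 libraries and 64.2 ± 3.59 CPM in DMSO libraries and rose by 0.42 ± 0.056, with a smaller rise with ACBI (0.13 ± 0.057, edgeR adjusted p = 0.0418). JAK1, which both receptors need, averaged 9.32 ± 1.26 CPM in ACBI libraries and 7.34 ± 1.06 CPM in DMSO libraries and rose by 0.34 ± 0.12 (edgeR adjusted p = 0.0106). The means of JAK1 in the other groups were between 6.81 and 8.75 CPM, with no call.

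Of 9 other STAT and IRF genes tested, 4 rose and 3 fell with ACBI and 6 rose and 1 fell with BD98. With 2-77 and with ENZA 4 rose and 1 fell, and with P-16 2 rose and 0 fell. IRF2, which competes with IRF1 for the same element, averaged 24.0 ± 0.391 CPM in ACBI libraries and 11.5 ± 1.08 CPM in DMSO libraries and rose by 1.05 ± 0.083. It also rose with BD98 (0.45 ± 0.086). STAT5A averaged 1.56 ± 0.252 CPM in ACBI libraries and 5.84 ± 0.332 CPM in DMSO libraries and fell with ACBI (-1.90 ± 0.17), whereas it rose with BD98 (0.45 ± 0.14). Of 14 tested genes of nucleic acid sensing, 4 rose and 8 fell with ACBI and 6 rose and 2 fell with BD98. With 2-77 7 rose and 2 fell, with ENZA 7 rose and 1 fell, and with P-16 4 rose and 0 fell. TBK1, the kinase that activates IRF3 after sensing, rose with ACBI (1.23 ± 0.065), while IKBKE, its relative, fell with ACBI (-2.13 ± 0.21) and rose with ENZA (0.57 ± 0.16) and 2-77 (0.40 ± 0.16).

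Of 13 inhibitors of interferon signalling 6 rose and 6 fell with ACBI, and 5 rose and 2 fell with BD98. With 2-77 5 rose and 2 fell, with ENZA 3 rose and 2 fell, and with P-16 1 rose and 1 fell. SOCS2, a suppressor of cytokine signalling, averaged 88.4 ± 3.56 CPM in ACBI libraries and 15.7 ± 0.725 CPM in DMSO libraries and rose by 2.49 ± 0.068 (edgeR adjusted p = 1.18e-23). It fell with P-16 (-0.76 ± 0.082), ENZA (-0.53 ± 0.078), BD98 (-0.36 ± 0.078) and 2-77 (-0.30 ± 0.076). PTPN6, the phosphatase SHP-1, rose with ACBI (1.10 ± 0.055), BD98 (0.43 ± 0.056), 2-77 (0.27 ± 0.056) and ENZA (0.26 ± 0.056).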

How the data were processed

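RNA of 18 LNCaP samples was sequenced with a stranded mRNA kit, per the labels' protocols. The authors deposited 1 table of estimated counts (expected counts, not all whole) per gene. STAR, Partek, DESeq2 and hg38 are named in the submitters' processing notes, and the counting program, its use of strand and its treatment of reads shared by paralogs are not given in the sources used here. Counts were rounded and genes filtered with filterByExpr (minimum count 10), which left 15422 of 20145 genes. TMM scaling and edgeR 4.0.16 (quasi-likelihood F test, robust, two-sided, R 4.3.3) were applied to all 18 libraries with 6 group means, and p-values were adjusted by Benjamini-Hochberg over all genes within each contrast. The standard error is the log2 fold change over the square root of F. The test was checked on simulated counts. Tables and figures were made with Python 3.11.15, pandas 2.3.3 and matplotlib 3.10.9.

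Total counts of 16835113 to 36975052 limit precision for genes of a few counts. Count ratios have exact 95% intervals, which cover counting error only, as do floors of 3 counts. Gene positions are hg38 as deposited. Values in every library are given for members with at least 1 CPM in the highest group, a call, groups that do not overlap and an absolute log2 fold change of at least 1, plus up to 4 members of smallest p per other contrast. From each pathway list up to 4 called genes per contrast were eligible. JAK1, DHX58, TLR3 and further contrasts of listed genes, such as DDX58 with ACBI, were added after their values were seen. The members and lists were chosen with earlier results of these data known. No replicate pair was alike within sampling noise. Alternatives were DESeq2 1.42.0, RLE factors, library totals, no filter, a minimum count of 30, 2 groups only, a replicate block, removal of ribosomal RNA and leaving out each library.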

Additional observations from a re-analysis of the deposited data

How the results depend on the processing

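No call of a member against DMSO reversed under any alternative run. Calls kept under all of them numbered 27 of 31 for ACBI, 8 of 10 for 2-77, 23 of 30 for BD98, 0 of 2 for P-16 and 8 of 11 for ENZA. With P-16, 0 members were lower without a filter, with DESeq2 or with the replicate block, and leaving out single libraries gave 0 to 1 lower and 0 to 1 higher. With ENZA, leaving out single libraries gave 2 to 4 lower, with 2 without ENZA replicate 2. With ACBI, leaving out single libraries gave 12 to 13 higher and 15 to 18 lower, and with BD98 23 to 26 higher and 3 to 4 lower. The labels do not say whether equal replicate numbers mark samples handled together. Of 45 same-numbered pairs 1 had a correlation of deviations over 0.1 (median -0.00109). It was ACBI replicate 3 with 2-77 replicate 3 (0.193), the libraries with the highest ribosomal RNA shares (8.6% and 2.09%). Low correlations show little shared deviation and cannot tell how samples were handled. With the replicate block the counts of members were those without it, except 6 higher with ENZA, 0 lower with P-16, 31 called in ACBI over 2-77 and 29 in ACBI over ENZA. Without ACBI replicate 3, whose ribosomal RNA share was 8.6%, IRF7 (-0.17), UBE2L6 (-0.48) and IFIT1 (-0.57) were not called. With 3 or fewer counts in a group, as for IFITM1, BST2 and IFI44L, the depth fixes little beyond the direction.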

Other observations

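Interferon-stimulated genes outside the 37 were measured as a further list of 41, of which 33 were tested. With ACBI 14 rose and 14 fell, with 2-77 10 rose and 3 fell, with BD98 15 rose and 5 fell, with P-16 9 rose and 3 fell, and with ENZA 10 rose and 4 fell. Of all genes 35.4% rose and 36.6% fell with ACBI, 20.5% and 20.2% with 2-77, 24.5% and 24.5% with BD98, 12.4% and 11.6% with P-16, and 18.2% and 18.1% with ENZA. HELZ2, a helicase, averaged 144 ± 14.0 CPM in ACBI libraries and 65.8 ± 2.32 CPM in DMSO libraries (SD, n = 3 each). It rose with ACBI (1.13 ± 0.056), 2-77 (0.44 ± 0.057), BD98 (0.97 ± 0.056), P-16 (0.35 ± 0.057) and ENZA (0.35 ± 0.057). NLRC5, an activator of the class I antigen presentation genes, averaged 1.59 ± 0.182 CPM in ACBI libraries and 11.1 ± 1.55 CPM in DMSO libraries and fell with ACBI (-2.80 ± 0.14), BD98 (-0.47 ± 0.11) and ENZA (-0.43 ± 0.11), whereas it rose with P-16 (0.50 ± 0.11). LY6E, a surface protein that restricts coronavirus entry, averaged 46.7 ± 1.48 CPM in BD98 libraries and 91.3 ± 4.56 CPM in DMSO libraries and fell with BD98 (-0.96 ± 0.070), 2-77 (-0.42 ± 0.067), ENZA (-0.51 ± 0.067) and ACBI (-0.39 ± 0.067). CD274, the ligand PD-L1, averaged 9.29 ± 0.742 CPM in ENZA libraries and 4.87 ± 0.314 CPM in DMSO libraries and rose with ENZA (0.93 ± 0.13, edgeR adjusted p = 1.56e-06), 2-77 (0.72 ± 0.13), P-16 (0.55 ± 0.14) and ACBI (0.32 ± 0.14).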
